A study of Mus musculus with 12 samples.

Results

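Untreated mouse liver was set against untreated F9 cells to ask which transcripts set the adult organ and the embryonal carcinoma line apart. The series holds 12 Affymetrix mouse arrays in 4 groups of 3, made to study the loss of selenophosphate synthetase 1 (SPS1, gene Sephs1), and the 6 control arrays were used here. The control livers came from 3 C57BL/6 mice, labelled male and 3 months old, that served as controls for a hepatocyte-specific Alb-Cre knockout. The control F9 samples came from the F9 line, a single embryonal carcinoma line of strain 129 derived from a testicular teratoma and labelled male, and served as controls for an shRNA against Sephs1. The labels do not say which alleles the control mice carried, which vector the control cells carried, or whether the 3 F9 samples were separate cultures. Whole liver holds Kupffer, endothelial, stellate and blood cells beside hepatocytes, whereas the F9 samples hold cells of 1 line.

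Liver and F9 values had been normalized in separate tables, so each array was turned into ranks. A percentile here runs from 0 to 100 over the 45037 probe sets of an array that are not Affymetrix controls, and a probe set is a group of short probes against 1 transcript. Each of 18193 genes was represented by the probe set with the highest mean percentile over the 6 arrays. A gene was counted as higher in 1 group when its 3 arrays there all lay above the 3 arrays of the other group and the group means differed by at least 25 percentile points. No p-value was computed across the tables, and 3 arrays against 3 could not give an exact permutation p below 0.10. Means are given ± SD over 3 arrays throughout, and a percentile compares a gene only with itself in the other group.

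By this rule 1910 genes (10.5%) ranked higher in liver and 1857 (10.2%) higher in F9, and 14426 (79.3%) were counted in neither direction. Spearman correlations across probe sets were 0.957 to 0.962 between control livers, 0.993 to 0.997 between control F9 samples and 0.668 to 0.676 between the groups. Probe sets are not independent replicates, and tissue, strain, culture and table normalization cannot be told apart in this comparison. The spread was wider in liver, with a median SD of 2.79 percentile points against 1.11 in F9. For mean percentiles of 25 to 50, where it was widest in liver, it was 9.00 in liver and 2.54 in F9, and above 90 in liver 0.317. The tables also differed at the low end. The lowest log2 value was -3.17 to -2.40 on the control livers and 2.61 to 2.74 on the control F9 arrays. The part of table processing in the spread and in the ranks of dim genes was not tested. The 18 hybridisation control probe sets, for transcripts added to every sample, differed by -4.02 to 0.479 points (liver minus F9), and the 24 poly-A control probe sets by -10.7 to 3.08. The other 6 arrays of the series, livers labelled knockout and F9 cells with the shRNA, gave the same call for 1647 (86.2%) of the genes higher in liver and 1481 (79.8%) of those higher in F9, and the opposite call for 0. Those arrays share the tissue, the strain and the table of their controls.

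Hepatocytes make most proteins of the blood plasma, keep blood glucose up between meals, turn ammonia into urea, make bile acids from cholesterol and oxidise drugs. Embryonal carcinoma cells are the stem cells of teratocarcinomas and resemble the pluripotent cells of the early embryo, in which Pou5f1, Sox2 and Nanog hold differentiation back. F9 cells divide quickly in culture and are known for turning into endoderm when given retinoic acid.

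**Figure D1:**
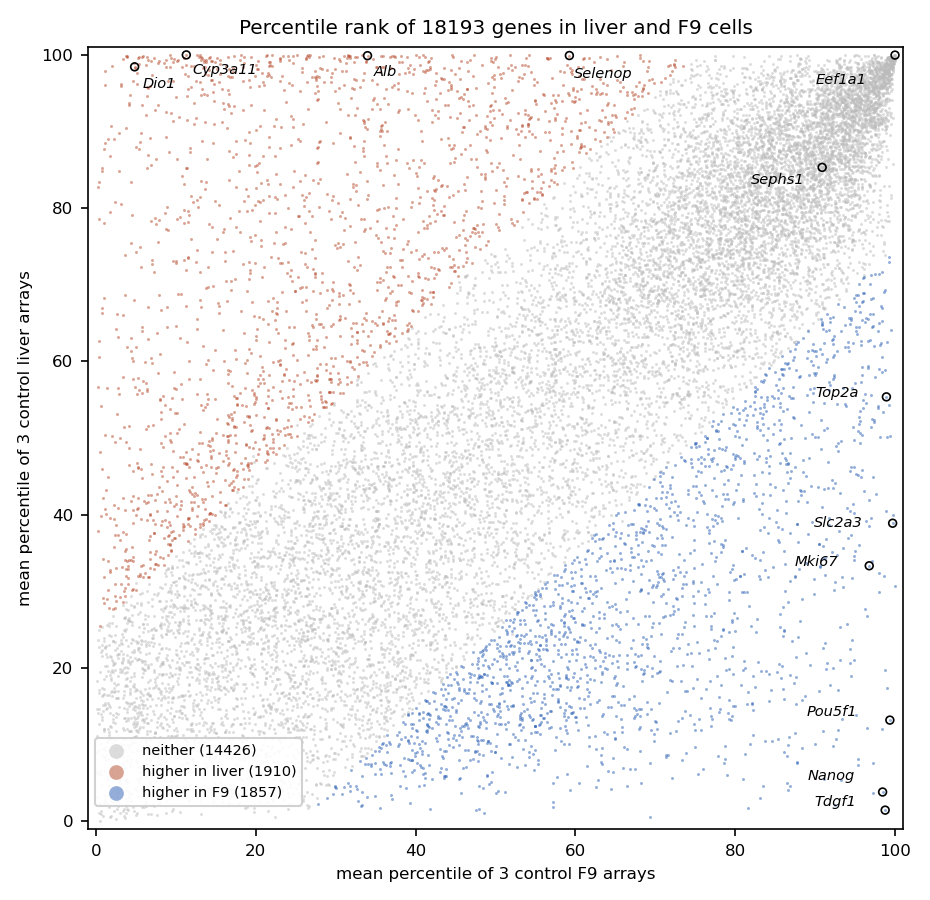
Mean percentile of each of 18193 genes on the 3 control F9 arrays (horizontal axis) against the 3 control liver arrays (vertical axis), coloured by call. Alb, Cyp3a11 and Dio1 lie at the top left, and Selenop lies at the top, right of the middle. Nanog, Tdgf1, Pou5f1, Slc2a3, Mki67 and Top2a lie at the lower right, and Sephs1 and Eef1a1 near the diagonal at the upper right.

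The labels were checked against defining markers and genes of the sex chromosomes. Albumin (Alb), the main plasma protein, lay at 99.8, 99.9 and 99.9 in the control livers and 39.7, 43.1 and 19.2 in the control F9 samples. Pou5f1, the transcription factor Oct4 of pluripotent cells, lay at 21.5, 9.4 and 8.7 in the control livers and 99.3, 99.4 and 99.4 in the control F9 samples. Both markers placed each array with its label, without overlap. Both groups are labelled male, and Eif2s3y, a Y-linked gene active in most male tissues, lay at 93.9, 93.0 and 93.4 in the control livers and 5.8, 8.0 and 9.6 in the control F9 samples. Uty, a Y-linked demethylase gene, lay at 78.8, 80.7 and 79.1 in the control livers and 1.4, 1.3 and 2.7 in the control F9 samples. Kdm5d, another Y-linked demethylase gene, lay at 79.2, 78.7 and 76.4 in the control livers and 2.0, 0.26 and 0.78 in the control F9 samples. These 3 genes were high in every control liver and near the bottom of every F9 array, although both groups are labelled male. The labels give no karyotype of the F9 samples, and why these genes ranked low there was not tested. Xist, the RNA that coats the inactive X chromosome of females, lay at 54.0, 43.8 and 48.6 in the control livers and 76.2, 74.2 and 75.1 in the control F9 samples, and was counted as higher in F9. Only 1 of the 3 Xist probe sets passed, the mean over its probe sets differed by -5.04 points, and without control liver 2 the difference was -23.9, short of the gap. Eif2s3y rests on 1 of 2 probe sets, the other differing by 9.27 points, and Uty on 3 of 4. Kdm5d rests on 1 of 3, and without control liver 1, 2 or 3 another probe set was chosen and the difference was 9.76, 4.38 and 5.92. The remaining 6 Y-linked genes with a probe set, Orly, Sry, Tspy-ps, Uba1y, Usp9y and Zfy2, were counted in neither direction.

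Unnamed gene models, such as symbols ending in Rik, were left out of the rankings of single genes. The 12 largest differences toward liver were then those of Amy1, Hsd17b13, Upp2, Ugt2b5, Mug1, Ugt2b1, Cyp3a25, Ces1f, Slc38a4, Aldh1a1, Sult2a8 and Dio1. Amy1, an amylase gene, lay at 97.97, 97.9 and 97.9 in the control livers and 1.0, 1.6 and 0.79 in the control F9 samples, a difference of 96.8 points. Upp2, a uridine phosphorylase, lay at 99.5, 99.4 and 99.3 in the control livers and 3.9, 3.0 and 3.2 in the control F9 samples, and all 3 of its probe sets passed. Over these 12 genes the lowest value on a control liver array was 97.9 (Amy1) and the highest on a control F9 array 7.52 (Sult2a8). Among them were enzymes that conjugate steroids, drugs and bile acids for excretion (Ugt2b5, Ugt2b1 and Sult2a8), the plasma protease inhibitor Mug1 and the amino acid transporter Slc38a4. Hsd17b13, a lipid droplet protein of hepatocytes, lay at 98.4, 98.4 and 98.5 in the control livers and 2.4, 1.5 and 1.9 in the control F9 samples. A second Hsd17b13 probe set did not pass, and it was the one chosen without control liver 1, 2 or 3, which gave differences of 22.3, 14.2 and 16.1 points.

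With gene models left out, the 12 largest differences toward F9 were those of Tdgf1, Nanog, Bub1, Cdc6, Eras, Fam169a, Ttk, Tubb2b, Sox2, Pou5f1, Cenpi and Rps6ka6. Tdgf1 (Cripto), a co-receptor for Nodal, lay at 0.23, 1.6 and 2.6 in the control livers and 98.5, 98.9 and 98.9 in the control F9 samples, a difference of -97.3 points. Nanog lay at 4.9, 4.3 and 2.3 in the control livers and 98.3, 98.5 and 98.5 in the control F9 samples. Bub1, a kinase of the spindle checkpoint, lay at 1.1, 7.2 and 2.9 in the control livers and 97.1, 97.4 and 97.3 in the control F9 samples, and both of its probe sets passed. Over these 12 genes the lowest value on an F9 array was 90.8 (Cenpi) and the highest on a liver array 22.7 (Sox2). The set joined 4 genes of pluripotent cells (Tdgf1, Nanog, Sox2 and Pou5f1), the Ras family member Eras of embryonic stem cells, and 4 genes of DNA replication licensing, the spindle checkpoint and the kinetochore (Cdc6, Bub1, Ttk and Cenpi). Tubb2b is a beta-tubulin and Rps6ka6 a kinase of the RSK family.

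**Figure D2:**
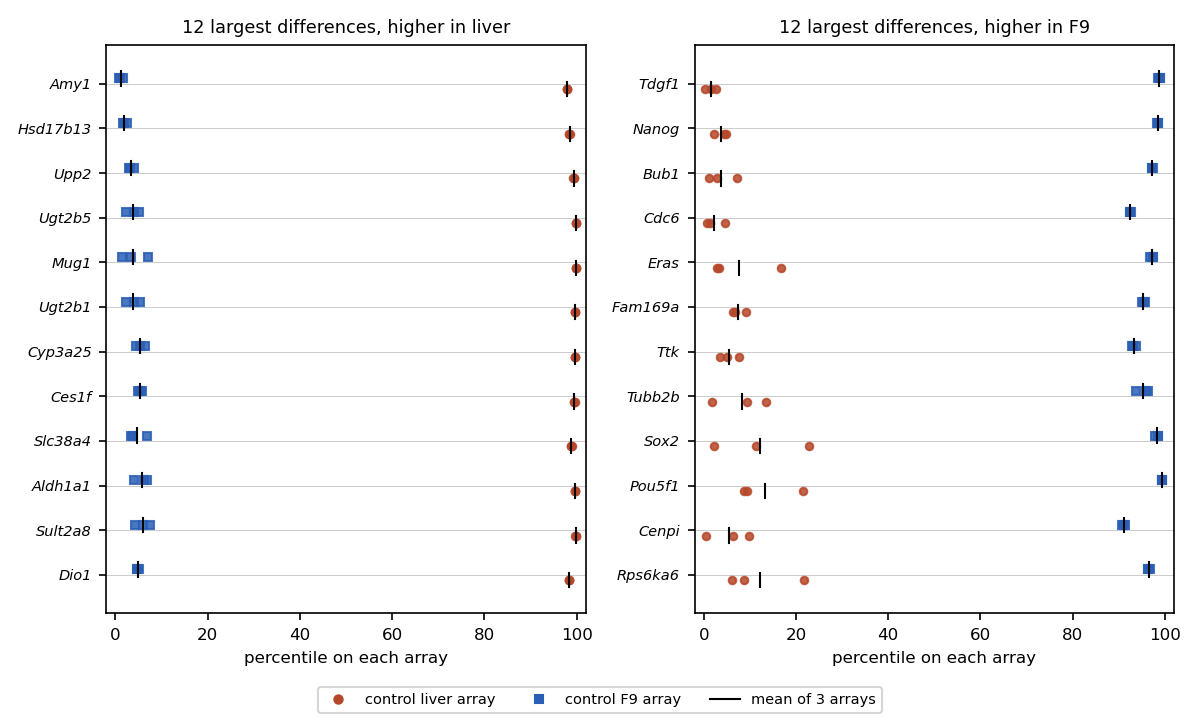
Percentile of the 12 genes with the largest differences in each direction, unnamed gene models left out, on each of the 6 control arrays. Circles are control liver arrays, squares are control F9 arrays and the vertical black lines are the means of 3 arrays. The groups are far apart for all 24 genes, and the liver arrays spread more widely than the F9 arrays where a gene is low, as for Sox2 and Pou5f1.

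Plasma proteins, which hepatocytes secrete, ranked higher in liver throughout the list. Of 24 measured genes for plasma carrier and transport proteins, 24 were higher in liver and 0 in F9, with a median difference of 66.5 points against -0.607 over all genes. Their medians on single arrays were 99.7 to 99.8 in liver and 32.9 to 34.8 in F9. Orm1, an acute phase plasma protein, lay at 99.5, 99.6 and 99.7 in the control livers and 7.9, 4.8 and 9.0 in the control F9 samples. Serpina7, the thyroxine-binding globulin, lay at 85.2 ± 7.5 in liver and 0.71 ± 0.42 in F9. The smallest difference of the list was 25.9 points. In bulk RNA, fewer cells of a type and less RNA per cell cannot be told apart.

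Coagulation and complement genes followed. Of 20 measured coagulation and fibrinolysis genes, 19 were higher in liver (median 69.5 points). F13b, the carrier subunit of factor XIII, lay at 98.7 ± 0.14 in liver and 5.4 ± 0.76 in F9, and prothrombin (gene F2) at 99.8 ± 0.029 in liver and 13.1 ± 2.7 in F9. Fibrinogen alpha (Fga) lay at 99.5 ± 0.010 in liver and 14.1 ± 6.6 in F9. Pros1, which encodes protein S, did not reach the gap, with 89.9 ± 0.63 in liver and 84.3 ± 0.26 in F9. Of 18 complement genes, 17 were higher in liver (median 66.4). Hc, which encodes complement C5, lay at 99.3 ± 0.15 in liver and 8.8 ± 0.98 in F9, and the mannose-binding lectin Mbl2 at 99.3 ± 0.058 in liver and 13.1 ± 3.2 in F9, while C2 lay at 94.4 ± 0.51 in liver and 70.0 ± 1.1 in F9 and did not pass. The complement list includes C1qa, C1qb and C1qc, which macrophages make.

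Of 18 measured hepatocyte transcription factors, 14 were higher in liver, 0 in F9 and 4 in neither (median 46.8 points). Prox1, a homeobox factor of hepatocytes and lymphatic endothelium, lay at 91.9, 88.3 and 86.6 in the control livers and 2.1, 3.4 and 1.3 in the control F9 samples. The bile acid receptor Nr1h4 (FXR) lay at 95.2 ± 0.67 in liver and 38.9 ± 3.0 in F9, and Cebpa at 95.1 ± 0.89 in liver and 39.5 ± 2.8 in F9. Hnf4a, a nuclear receptor needed for hepatocyte identity, lay at 98.7 ± 0.074 in liver and 51.9 ± 1.4 in F9. The 4 factors in neither class were Onecut1, Cebpb, Nr5a2 and Tbx3. Nr5a2, which regulates bile acid synthesis in liver and Pou5f1 in embryonic stem cells, lay at 93.0, 92.8 and 90.8 in the control livers and 92.9, 92.5 and 92.3 in the control F9 samples. The groups overlapped, with a difference of -0.34 points. Tbx3, a factor of both pericentral hepatocytes and pluripotent cells, lay at 76.1 ± 2.1 in liver and 94.2 ± 0.53 in F9, higher in F9 but short of the gap.

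Genes of glucose output and glycogen were mostly higher in liver, 10 of 12 measured, with 0 higher in F9 (median 52.9 points). Slc2a2, the glucose transporter GLUT2, lay at 99.3, 99.3 and 99.3 in the control livers and 7.3, 6.5 and 5.7 in the control F9 samples. G6pc, the catalytic subunit of glucose-6-phosphatase that frees glucose for export, lay at 98.2, 98.8 and 98.9 in the control livers and 20.1, 7.3 and 6.6 in the control F9 samples. Pck1, the cytosolic phosphoenolpyruvate carboxykinase, lay at 96.7 ± 0.19 in liver and 14.4 ± 1.0 in F9. Groups did not overlap for any of these 3 genes. Pklr, the pyruvate kinase gene of liver and red cells, lay at 70.5 ± 4.8 in liver and 68.4 ± 1.6 in F9 and Pcx, pyruvate carboxylase, at 97.6 ± 0.16 in liver and 77.7 ± 0.65 in F9, and neither reached the gap.

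In amino acid breakdown, 21 of 24 measured genes were higher in liver and 0 in F9 (median 52.5 points). Dpyd, which breaks down pyrimidines and was placed in the list with them, lay at 99.1 ± 0.079 in liver and 13.5 ± 8.1 in F9. Kynu and Tdo2 of tryptophan breakdown lay at 94.5 ± 0.10 in liver and 10.01 ± 0.73 in F9, and at 98.9 ± 0.23 in liver and 18.5 ± 4.6 in F9. Cth, cystathionine gamma-lyase, was high in both groups, at 98.8, 98.7 and 99.04 in the control livers and 98.8, 98.8 and 98.8 in the control F9 samples. Its groups overlapped.

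Genes of the urea cycle and ammonia handling split. Otc, Arg1, Cps1, Nags and Ass1 were higher in liver, 5 of 11 measured genes, whereas 6 were in neither class. Otc, ornithine transcarbamylase, lay at 99.6, 99.6 and 99.5 in the control livers and 13.5, 11.6 and 7.9 in the control F9 samples. Cps1, carbamoyl-phosphate synthetase, lay at 99.9, 99.9 and 99.9 in the control livers and 33.4, 31.1 and 30.2 in the control F9 samples. The liver arrays lay above the F9 arrays for all 11 genes, as they did for 35.1% of all genes, but Asl, Slc25a13, Slc25a15, Oat, Glul and Glud1 were also high in F9. Asl, argininosuccinate lyase, lay at 98.02 ± 0.29 in liver and 84.8 ± 0.59 in F9 and Glud1, glutamate dehydrogenase, at 99.1 ± 0.059 in liver and 98.3 ± 0.12 in F9. A gene at or above 75 in F9 cannot reach a gap of 25 points, so these genes had no room to pass.

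Fatty acid oxidation showed the same limit more widely. Of 21 measured genes, 4 were higher in liver (median 12.03 points) and 16 were at or above 75 in both groups. All 21 lay without overlap above F9, against 35.1% of all genes. Fabp1, the fatty acid-binding protein of liver, lay at 99.996, 99.998 and 100.000 in the control livers and 19.8, 18.6 and 16.2 in the control F9 samples. Eci2, an enoyl-CoA isomerase, lay at 97.6 ± 0.21 in liver and 33.5 ± 0.30 in F9, and Ehhadh, the peroxisomal bifunctional enzyme, at 97.8 ± 0.33 in liver and 54.5 ± 5.5 in F9. Acaa1b, a peroxisomal thiolase, lay at 99.9 ± 0.056 in liver and 65.2 ± 2.2 in F9. By contrast Hadh, a mitochondrial dehydrogenase of the pathway, lay at 99.7 ± 0.017 in liver and 99.2 ± 0.11 in F9.

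Bile acid and cholesterol genes passed in 19 of 20 cases, with 0 higher in F9 (median 65.8 points). Abcg5, a sterol exporter, lay at 96.1, 96.7 and 96.6 in the control livers and 10.9, 10.9 and 17.1 in the control F9 samples. Baat, which joins bile acids to amino acids, lay at 96.7 ± 0.24 in liver and 14.5 ± 2.5 in F9, and Abcc2, an exporter of conjugates into bile, at 97.4 ± 0.90 in liver and 15.5 ± 5.2 in F9. Slco1b2, an uptake carrier, lay at 99.3 ± 0.25 in liver and 18.04 ± 5.2 in F9. Scarb1, the receptor for high-density lipoprotein, lay at 92.1 ± 0.56 in liver and 81.0 ± 0.53 in F9 and did not pass.

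Of 22 cytochrome P450 genes of drug metabolism, 18 were higher in liver and 0 in F9 (median 66.7 points). Cyp3a11, a main drug-oxidising enzyme of mouse liver, lay at 99.98, 99.97 and 99.96 in the control livers and 16.1, 14.8 and 3.0 in the control F9 samples. Cyp1a2 lay at 99.5 ± 0.047 in liver and 9.4 ± 1.6 in F9 and Cyp2f2 at 99.7 ± 0.088 in liver and 6.4 ± 1.7 in F9. The 4 that did not pass were Cyp1a1, Cyp1b1, Cyp2b13 and Cyp2b10, with liver means of at most 66.1. Of 21 glutathione transferases, which couple electrophiles to glutathione, 12 were higher in liver, 0 in F9 and 9 in neither (median 26.4). Gsta2 lay at 96.5 ± 0.98 in liver and 12.5 ± 1.2 in F9, while Gsta4 lay at 96.3 ± 1.1 in liver and 98.3 ± 0.10 in F9 and Gstp1 at 99.95 ± 0.018 in liver and 97.4 ± 0.037 in F9, high in both.

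Genes of both zones of the liver lobule were found among those higher in liver. Of 15 genes known from hepatocytes around the central vein, 9 passed, and of 14 known from those around the portal vein, 10 passed. The medians were 62.0 and 55.0 points. The pericentral glutamate carrier Slc1a2 lay at 91.7 ± 0.95 in liver and 12.5 ± 3.1 in F9, with 2 of its 5 probe sets passing and 1 passing toward F9. The pericentral genes Glul and Oat were high in F9 too, and Lgr5, a receptor for R-spondins, lay at 44.4 ± 11.3 in liver and 45.8 ± 1.6 in F9. The periportal list had Arg1, Cps1 and Pck1 among those that passed, and Cdh1, E-cadherin, lay at 93.1 ± 1.3 in liver and 97.8 ± 0.42 in F9, high in both.

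Genes known to be higher in the liver of male mice passed in 10 of 11 cases (median 58.5 points), as did 5 of 11 genes known to be higher in females (median 17.5). Cyp4a12a, a male-biased fatty acid hydroxylase, lay at 98.5, 98.7 and 98.9 in the control livers and 8.0, 4.5 and 6.3 in the control F9 samples. Hsd3b5, a male-biased steroid dehydrogenase, lay at 99.3 ± 0.10 in liver and 10.2 ± 1.2 in F9. The female-biased Cyp3a44 lay at 53.4 ± 10.2 in liver and 8.2 ± 1.2 in F9, and Sult3a1 at 3.9 ± 2.2 in liver and 3.9 ± 3.2 in F9, near the bottom in both groups.

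Most markers of macrophages, endothelium and stellate cells were higher in liver too. Of 16 Kupffer cell and macrophage markers 12 passed, of 16 endothelial markers 13 and of 14 stellate cell markers 8, with medians of 50.9, 44.6 and 53.3 points. Cd5l, a secreted protein of resident macrophages, lay at 94.7, 96.6 and 95.2 in the control livers and 9.9, 10.6 and 13.99 in the control F9 samples. Oit3, a gene of sinusoidal endothelium, lay at 85.2 ± 0.97 in liver and 11.3 ± 2.8 in F9, and Clec4g at 95.3 ± 0.60 in liver and 25.5 ± 2.1 in F9. Lrat, the enzyme with which stellate cells store retinol as esters, lay at 88.8, 87.5 and 85.9 in the control livers and 4.4, 9.8 and 13.3 in the control F9 samples. The medians of these 3 lists on single liver arrays ran from 84.9 to 87.1, 81.5 to 82.9 and 82.3 to 84.2. In F9 they ran from 34.7 to 36.3, 35.1 to 36.5 and 32.8 to 37.4. Ngfr, a stellate cell marker, was the exception that ranked higher in F9, at 32.3 ± 13.6 in liver and 68.2 ± 0.61 in F9, with 1 of its 3 probe sets passing and with no call on the other 6 arrays. Of 7 cholangiocyte markers 1 passed, Aqp1, a water channel that endothelium and red cells also carry. Of 14 blood markers 4 passed, Ptprc, Alas2, Ms4a1 and Cd3g, of which Ms4a1 and Cd3g did not pass on the other 6 arrays. The part of these cells in the liver-high genes was not tested.

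Promoters of 3 liver-high genes are shown because they hold letters known from binding sites of liver and general factors. The runs are the 250 bases before the start of each gene in RefSeq (assembly GRCm38.p6), all on the plus strand, at chr5:90460620-90460869 for Alb, chr11:101367466-101367715 for G6pc and chr6:71199629-71199878 for Fabp1. Capitals mark TATAAA, the TATA box, and GTTAAT, the core of the site of the hepatocyte factor HNF1.
Alb: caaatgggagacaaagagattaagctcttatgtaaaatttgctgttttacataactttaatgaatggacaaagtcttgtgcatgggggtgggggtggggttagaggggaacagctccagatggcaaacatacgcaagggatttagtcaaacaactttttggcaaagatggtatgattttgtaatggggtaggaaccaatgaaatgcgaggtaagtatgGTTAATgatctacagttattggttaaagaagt
G6pc: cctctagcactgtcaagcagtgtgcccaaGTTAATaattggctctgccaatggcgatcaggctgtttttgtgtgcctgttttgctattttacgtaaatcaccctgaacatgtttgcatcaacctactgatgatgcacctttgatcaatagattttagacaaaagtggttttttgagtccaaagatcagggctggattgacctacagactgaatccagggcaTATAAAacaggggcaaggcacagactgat
Fabp1: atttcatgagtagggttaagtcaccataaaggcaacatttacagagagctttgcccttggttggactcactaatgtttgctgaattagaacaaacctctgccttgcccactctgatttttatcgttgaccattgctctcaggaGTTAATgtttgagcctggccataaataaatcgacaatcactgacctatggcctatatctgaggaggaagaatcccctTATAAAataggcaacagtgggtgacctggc
The first base of GTTAAT lies 32 bases before the start in Alb, 221 in G6pc and 107 in Fabp1. TATAAA begins 29 bases before the start of G6pc and 30 before that of Fabp1, and these letters are not in the Alb run.

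Genes of pluripotent cells leaned to F9. Of 33 measured, 25 were higher in F9, 0 in liver and 8 in neither, with a median difference of -57.2 points. Sox2 lay at 11.3, 2.3 and 22.7 in the control livers and 97.9, 98.5 and 98.5 in the control F9 samples. Lefty2, an inhibitor of Nodal, lay at 11.8 ± 4.7 in liver and 90.9 ± 1.2 in F9. Zfp42 (Rex1), a marker of embryonic stem cells that is lost early in differentiation, lay at 98.7 ± 0.021 in F9 and 19.8 ± 13.8 in liver and Dppa5a at 99.98 ± 0.0013 and 30.7 ± 1.2. The 8 in neither class were Fgf5, Alpl, Nr5a2, Dppa3, Fgf4, Klf2, Tbx3 and Rex2. Fgf5, which marks the epiblast as it leaves the naive state, went the other way without reaching the gap, at 34.4 ± 9.4 in liver and 12.9 ± 3.2 in F9.

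Markers of the cell types that F9 cells can form were mixed, and several shares lay near the 10.5% (liver) and 10.2% (F9) over all genes. The shares higher in liver and in F9 were 37.5% and 12.5% for primitive and visceral endoderm and 14.3% and 7.14% for parietal endoderm. They were 9.09% and 9.09% for mesoderm and primitive streak. The shares higher in F9 were 30.0% for ectoderm and neural genes and 46.2% for germ cell genes. Of 16 genes of primitive and visceral endoderm, 6 were higher in liver and 2 in F9 (Lrp2 and Cubn, neither of which passed on the other 6 arrays), with 8 in neither. The 6 were Dab2 and Apoa1, Ttr, Hnf4a, Foxa2 and Fgfr4, which are genes of hepatocytes as well. Fgfr4 fell short of the gap without control liver 3, at 21.3 points. Of 14 genes of parietal endoderm and its basement membrane, 2 were higher in liver and 1, Lama1, in F9. Lama1, a laminin chain, lay at 47.3 ± 16.2 in liver and 80.0 ± 0.23 in F9, and without control liver 2 its difference was -23.8 points, short of the gap. The endoderm factors Gata4, Gata6 and Sox17 lay at 32.3 ± 0.40, 60.7 ± 0.75 and 46.1 ± 2.8 in F9 and were in neither class. Eomes of early mesendoderm was the mesoderm and primitive streak gene higher in F9, 1 of 11, at 15.3 ± 8.2 in liver and 81.5 ± 0.22 in F9. Of 10 ectoderm and neural genes 3 were higher in F9, Sox1, Ncam1 and Tubb3, and of 13 germ cell genes 6 were, with 0 higher in liver in either list. On the other 6 arrays, 3 of these ectoderm and neural genes and 4 of these germ cell genes kept the call. Prdm14, a factor of primordial germ cells and of embryonic stem cells, lay at 28.7 ± 9.0 in liver and 86.6 ± 0.53 in F9, and Dmrt1, a factor of the testis and germ line, at 19.7 ± 14.3 in liver and 78.8 ± 0.78 in F9.

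Genes of fetal liver and of liver tumours did not favour the adult organ. Of 10 fetal and oncofetal genes, 0 were higher in liver, 3 in F9 and 7 in neither (median -16.6 points). Igf2bp1, an RNA-binding protein of embryonic tissues, lay at 23.8, 35.4 and 8.6 in the control livers and 90.8, 91.0 and 91.2 in the control F9 samples. Igf2, the fetal growth factor, lay at 24.7 ± 5.3 in liver and 58.7 ± 2.5 in F9, and it lost its call when its 2 probe sets were averaged (-15.1 points). Hmga2, the third of these genes, fell short of the gap without control liver 1 (-23.5) and on the other 6 arrays (-11.9). Afp, the fetal counterpart of albumin, lay at 33.2, 23.6 and 38.5 in the control livers and 25.3, 24.6 and 21.8 in the control F9 samples. Its groups did not reach the gap, and both lay in the lower part of the scale.

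Mitosis genes leaned to F9 nearly without exception. Of 26 measured, 25 were higher in F9 and 0 in liver (median -51.1 points), and the one left, Cenpa, lay at 74.3 ± 1.7 in liver and 96.8 ± 0.24 in F9. Ttk, a spindle checkpoint kinase, lay at 5.1, 3.6 and 7.7 in the control livers and 93.8, 93.0 and 92.8 in the control F9 samples. Aurkb, the kinase of the chromosomal passenger complex, lay at 10.5 ± 11.7 in liver and 84.6 ± 2.5 in F9, and Bub1b at 13.4 ± 5.5 in liver and 93.3 ± 0.63 in F9. Medians of the list on single arrays were 36.0 to 47.6 in liver and 93.9 to 94.3 in F9.

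Of 31 DNA replication genes, 19 (61.3%) were higher in F9, 0 in liver and 12 in neither (median -26.7 points). The share higher in F9 over all genes was 10.2%, and 15 of the 19 kept the call on the other 6 arrays. Cdc6, which loads the replicative helicase, lay at 0.72, 4.6 and 1.3 in the control livers and 92.4, 92.5 and 92.6 in the control F9 samples. Gins2 of the helicase complex lay at 34.6 ± 9.0 in liver and 94.8 ± 0.22 in F9, and DNA ligase 1 (Lig1) at 55.6 ± 2.4 in liver and 97.0 ± 0.11 in F9. Cdc45, another helicase subunit, lay at 48.0 ± 15.4 in liver and 85.8 ± 0.49 in F9, but without any 1 of the F9 arrays a second probe set was chosen and the difference was 3.21 to 3.95 points toward liver. Mcm10 was the member that lay without overlap toward liver, at 96.9 ± 0.58 in liver and 91.8 ± 0.22 in F9, short of the gap. Of 21 G1 cyclins and cell cycle inhibitors only Rbl1 and Ccne1 passed, both higher in F9. This share, 9.52%, was near the 10.2% over all genes. Of the 19 in neither class, 6 were at or above 75 in both groups, where the gap cannot be reached. Cyclin E1 (Ccne1) lay at 65.4 ± 3.8 in liver and 95.9 ± 0.36 in F9. Rbl1, which encodes p107, lay at 56.1 ± 8.5 in liver and 82.5 ± 0.13 in F9, and it fell short of the gap without control liver 1 (-22.3 points) and on the other 6 arrays (-24.7).

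Of 21 genes of DNA methylation and Polycomb complexes, 4 were higher in F9, 0 in liver and 17 in neither (median -15.8 points). Tet1, which oxidises methylcytosine, lay at 32.3, 12.7 and 14.5 in the control livers and 91.8, 91.3 and 91.0 in the control F9 samples, and 3 of its 4 probe sets passed. Uhrf1, which brings the maintenance methyltransferase to replicated DNA, lay at 22.4, 47.4 and 27.4 in the control livers and 98.04, 98.1 and 97.9 in the control F9 samples. Dnmt3l and Dnmt3b, the cofactor and one enzyme of new methylation, lay at 34.8 ± 17.3 in liver and 92.7 ± 0.23 in F9, and at 51.0 ± 1.6 in liver and 91.1 ± 0.31 in F9. Ribosome biogenesis genes lay without overlap toward F9 in 22 of 22 cases, against 40.0% of all genes, but 2 reached the gap, Rrp9 at 50.1 ± 24.3 in liver and 89.95 ± 0.69 in F9 and Rrp12 at 58.2 ± 5.6 in liver and 83.9 ± 1.1 in F9. Rrp12 fell short of the gap without control liver 2 (-23.3 points), and on the other 6 arrays the differences were -24.3 for Rrp9 and -20.4 for Rrp12.

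The promoters of Sox2 and Bub1 are shown for contrast with those of Alb, G6pc and Fabp1. They are the 250 bases before the start in RefSeq (GRCm38.p6), at chr3:34649745-34649994 on the plus strand and chr2:127831860-127832109 on the minus strand. Capitals mark every CG, the dinucleotide that can carry DNA methylation.
Sox2: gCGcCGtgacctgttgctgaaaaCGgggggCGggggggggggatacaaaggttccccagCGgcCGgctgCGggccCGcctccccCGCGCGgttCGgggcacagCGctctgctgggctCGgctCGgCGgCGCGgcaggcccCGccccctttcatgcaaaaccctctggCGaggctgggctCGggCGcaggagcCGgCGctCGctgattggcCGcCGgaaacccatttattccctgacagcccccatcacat
Bub1: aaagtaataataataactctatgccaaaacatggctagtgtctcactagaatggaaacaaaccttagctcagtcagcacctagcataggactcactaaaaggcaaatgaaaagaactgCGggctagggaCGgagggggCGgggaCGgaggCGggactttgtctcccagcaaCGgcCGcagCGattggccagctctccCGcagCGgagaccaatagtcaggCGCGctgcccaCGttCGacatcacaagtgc
The Sox2 run holds 27 CG and the Bub1 run 14, while each of the 3 liver runs above holds 2.

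Across the genes with a RefSeq promoter, 14367 of 18193, the CpG content of the window from 250 bases before to 50 after the start differed between the classes. The median ratio of observed to expected CpG was 0.353 for genes higher in liver, 0.641 for those higher in F9 and 0.675 for all. For genes with a gap of at least 50 points it was 0.274 toward liver and 0.682 toward F9. Genes in neither class had a median of 0.833 where they were at or above percentile 75 in both groups and 0.340 where they were below 50 in both. The liver-high genes lay near the genes that were dim in both groups, and the F9-high genes lay below the genes that were high in both. The 6 letters TATAAA, on the strand of the gene, stood in 9.91% of windows of liver-high genes, 5.23% of F9-high genes and 6.49% of all. GTTAAT, on either strand, stood in 8.90%, 5.02% and 5.03%, and in 12.5% of genes higher in liver by at least 50 points. Genes below 50 in both groups and in neither class held TATAAA in 10.97% and GTTAAT in 6.67%. TTGCGCAA, a palindrome bound by C/EBP factors, stood in 4 windows of liver-high genes (0.270%), 1 of F9-high genes (0.0698%) and 33 of all (0.230%), too few to compare. TATAAA and GTTAAT can share a base, and a match of letters is not a binding site. No test was run on these shares, and windows differ in base composition.

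**Figure D3:**
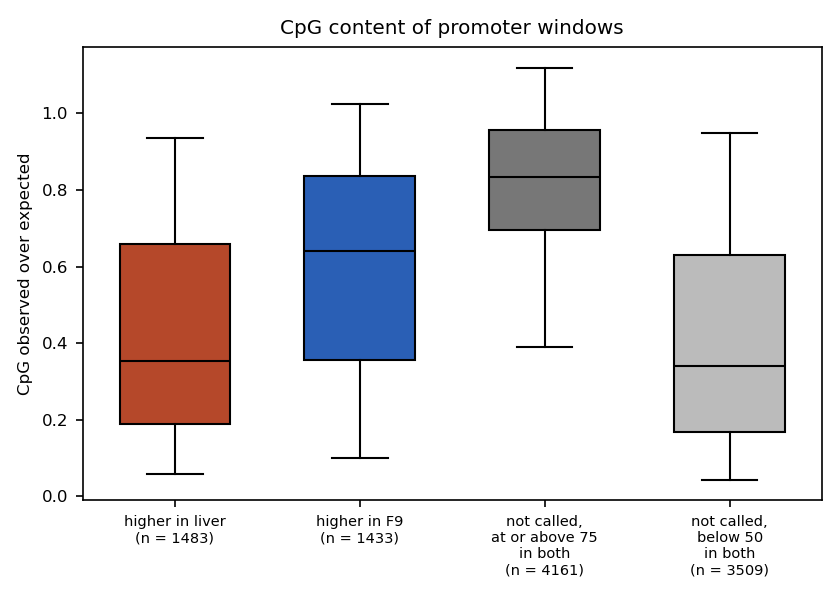
Ratio of observed to expected CpG in the promoter windows of genes higher in liver, higher in F9 and in neither class at or above 75, or below 50, in both groups. Boxes span the quartiles with the median as a line and whiskers run from the 5th to the 95th percentile of genes. The medians are 0.353, 0.641, 0.833 and 0.340.

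Isoenzymes that catalyse one reaction from different genes were grouped into those of liver and those called widely expressed. The second group also holds forms named for muscle, platelets or brain, such as Gys1, Pfkp, Pygb and Cpt1c. Of 11 liver isoenzymes 6 were higher in liver and 0 in F9, and of 15 widely expressed isoenzymes 6 were higher in F9 and 0 in liver. The medians were 56.9 and -18.2 points. Among glucose transporters, Slc2a2 ranked higher in liver, as above, whereas Slc2a3 (GLUT3) lay at 42.7, 30.7 and 43.3 in the control livers and 99.8, 99.7 and 99.6 in the control F9 samples. Slc2a1 (GLUT1) lay at 81.3 ± 2.4 in liver and 99.5 ± 0.035 in F9, toward F9 but short of the gap. The 3 transporters thus differed in direction. Among glycogen synthases, the liver form Gys2 lay at 97.8 ± 0.30 in liver and 41.0 ± 1.1 in F9, and the muscle form Gys1 at 43.2 ± 12.9 in liver and 88.6 ± 0.80 in F9. The pyruvate kinase gene Pkm, whose M2 form is known from dividing cells, lay at 48.2, 49.6 and 59.1 in the control livers and 97.4, 97.4 and 97.3 in the control F9 samples. Its liver arrays were all lower than its F9 arrays, while the counterpart Pklr was in neither class. Of the phosphofructokinases, the platelet form Pfkp lay at 45.0 ± 9.0 in liver and 95.7 ± 0.56 in F9, whereas the liver form Pfkl lay at 69.8 ± 3.3 in liver and 86.3 ± 0.35 in F9, the opposite direction to its name and short of the gap. Hexokinase 2 (Hk2) lay at 65.2 ± 1.6 in liver and 96.2 ± 0.21 in F9. Gys1, Pfkp and Hk2 each lay toward F9 without overlap. The liver methionine adenosyltransferase Mat1a lay at 99.3 ± 0.14 in liver and 13.8 ± 1.7 in F9, and glycogen phosphorylase of liver (Pygl) at 98.8 ± 0.032 in liver and 15.5 ± 5.7 in F9 beside its brain form Pygb at 65.1 ± 1.1 in liver and 75.1 ± 0.69 in F9. Cpt1a, the carnitine palmitoyltransferase of liver, was high in both at 97.9 ± 0.26 in liver and 86.5 ± 0.16 in F9, and the brain form Cpt1c lay at 14.6 ± 3.1 in liver and 69.4 ± 0.92 in F9.

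Most genes of the study's own pathway were in neither class. Selenoproteins hold selenium as selenocysteine, which is made from selenophosphate, and liver exports selenium to other tissues as selenoprotein P. Of 23 measured selenoprotein genes 2 were higher in liver, 1 in F9 and 20 in neither (median 2.29 points). The shares were 8.7% and 4.35% against 10.5% and 10.2% over all genes. Of the 20, 13 were at or above 75 in both groups, where the gap cannot be reached. Without a gap, 15 of the 23 lay without overlap toward liver and 5 toward F9, against 35.1% and 40.0% of all genes. Dio1, the deiodinase that activates thyroid hormone in liver, lay at 98.4, 98.4 and 98.4 in the control livers and 5.2, 4.7 and 4.6 in the control F9 samples. Selenop, which encodes selenoprotein P, lay at 99.9, 99.9 and 99.9 in the control livers and 59.4, 59.1 and 59.3 in the control F9 samples. Both were higher in every liver array. Selenom, a protein of the endoplasmic reticulum, lay at 55.2, 50.2 and 47.5 in the control livers and 80.0, 79.8 and 80.7 in the control F9 samples, the reverse order. Gpx1 lay at 99.7 ± 0.030 in liver and 97.7 ± 0.14 in F9, Gpx4 at 98.4 ± 0.030 in liver and 98.9 ± 0.021 in F9 and Txnrd1 at 93.8 ± 0.85 in liver and 93.4 ± 0.23 in F9, peroxidases and a reductase that were high in both groups. Sephs2, the synthetase that makes selenophosphate and is itself a selenoprotein, lay at 99.4, 99.5 and 99.3 in the control livers and 95.4, 95.7 and 96.0 in the control F9 samples. Sephs1, the gene targeted in the study, lay at 85.2, 84.7 and 86.0 in the control livers and 91.1, 91.0 and 90.5 in the control F9 samples. Sephs2 lay without overlap higher in liver and Sephs1 without overlap higher in F9, as did 35.1% and 40.0% of all genes. Both genes were above 75 in both groups, so neither could reach the gap. Of 13 genes of selenoprotein synthesis and selenium supply, Selenbp1 was higher in liver, Lrp8 and Lrp2 in F9, and 10 were in neither class (median 0.0363). Of these 10, 8 were at or above 75 in both groups and could not pass. Lrp8, a receptor that takes up selenoprotein P, lay at 35.0, 6.0 and 17.5 in the control livers and 85.6, 84.5 and 85.5 in the control F9 samples. Lrp2, megalin, lay at 30.9 ± 6.6 in liver and 59.8 ± 2.3 in F9, and its call was lost when its 3 probe sets were averaged (-15.6 points) and on the other 6 arrays.

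**Figure D4:**
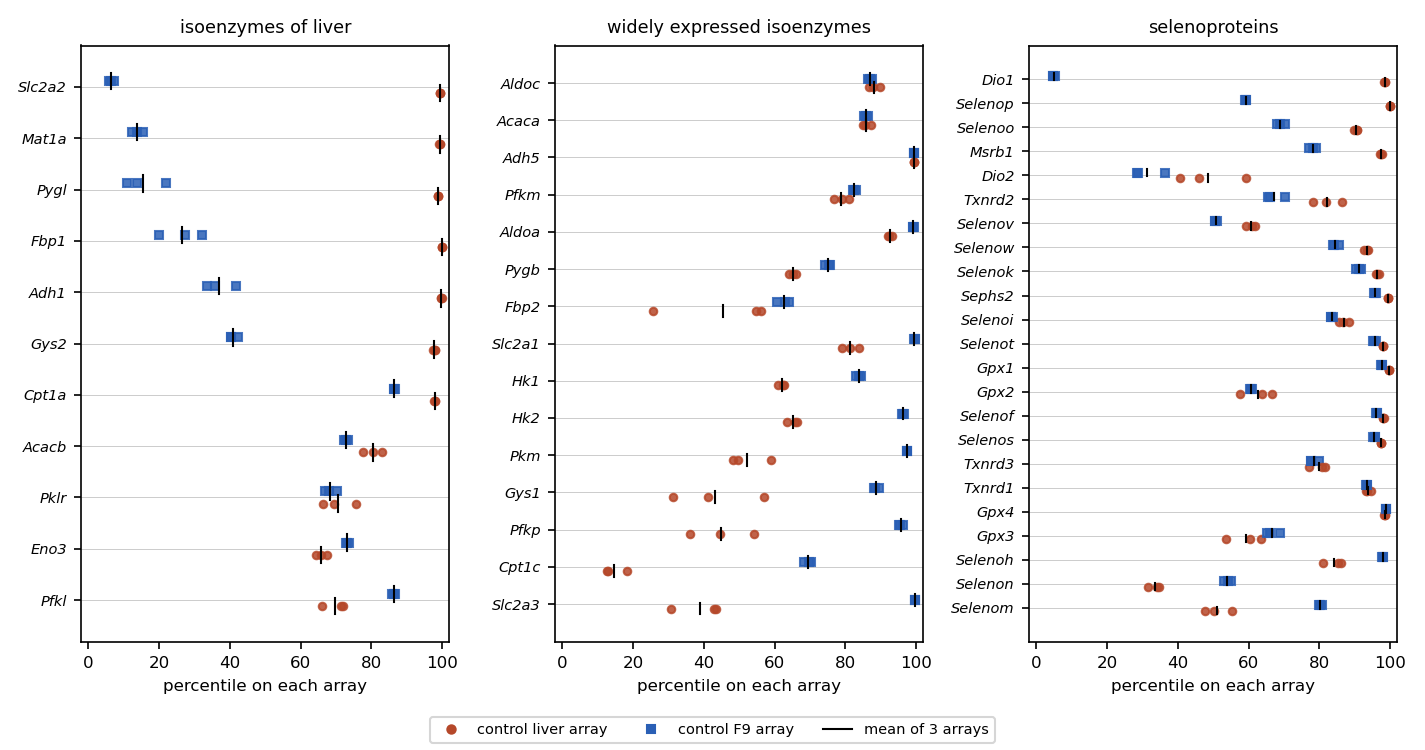
Percentile on each of the 6 control arrays for isoenzymes of liver, widely expressed isoenzymes and selenoproteins. Circles are control liver arrays, squares control F9 arrays and black lines means of 3 arrays, with genes ordered by the liver minus F9 difference. Dio1 and Slc2a2 stand apart toward liver and Slc2a3 and Selenom toward F9, while most selenoproteins have both groups in the upper part of the scale.

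Retinoid genes passed toward liver more often than toward F9. Of 18 measured, 8 (44.4%) were higher in liver, 2 (11.1%) in F9 and 8 in neither (median 18.8 points). The share toward F9 was near the 10.2% over all genes, and the share toward liver was above the 10.5% over all genes. Aldh1a1, which makes retinoic acid, lay at 99.6, 99.7 and 99.6 in the control livers and 4.1, 6.8 and 6.2 in the control F9 samples. The carrier Rbp4 and the storage enzyme Lrat were among those higher in liver, as was the receptor Rarb at 67.8 ± 3.8 in liver and 25.8 ± 3.4 in F9. Crabp2, which carries retinoic acid to its receptors, lay at 10.6 ± 1.0 in liver and 52.8 ± 3.3 in F9 and was higher in F9. Rara, the other gene higher in F9, lay at 31.2 ± 12.1 in liver and 56.5 ± 1.7 in F9 and fell short of the gap without control liver 1 or 3 or F9 sample 1, at -22.0, -21.5 and -24.5 points. It did so too on the other 6 arrays (-17.0) and with percentiles over the chosen probe sets (-22.04).

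Most genes of general cell machinery were high in both groups. All 25 measured proteasome genes and 26 of 29 cytosolic ribosomal protein genes were in neither class and at or above 75 in both groups, where the gap cannot be reached, so their counts say nothing of a difference. Without a gap, 22 of the 25 and 26 of the 29 lay without overlap toward F9, against 40.0% of all genes. Rpl14 was the ribosomal protein gene that passed, higher in F9 at 64.0 ± 2.5 in liver and 93.2 ± 0.38 in F9. The medians of the proteasome and ribosomal protein lists were -1.38 and -0.662 points. With gene models left out, the 8 genes highest on all 6 arrays were Chchd10, Cox6a1, Eef1a1, Rpl38, Rps28, Rps29, Tpt1 and Uqcrb, of translation and mitochondrial respiration for the most part. Rps16 lay at 7.9 ± 8.9 in liver and 7.8 ± 5.4 in F9, which shows a dim probe set for a gene that cells use widely.

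The brightest genes of each group were then followed into the other. In liver 263 genes were at or above percentile 99 and in F9 204, and 64 were so in both, 24.3% and 31.4% of each. Of the 263, 134 (51.0%) were counted as higher in liver and 112 were below 50 in F9, with a median F9 percentile of 68.4. Of the 204, 10 (4.90%) were counted as higher in F9 and 4 were below 50 in liver, with a median liver percentile of 98.3. The difference of these shares was not tested. At the threshold of 25 points, Mfsd9 at 54.4 in liver and 29.4 in F9 was just inside toward liver and C2cd2 at 89.3 and 64.3 just outside, and Cyp11a1 at 45.6 and 70.6 was just inside toward F9 and Igfbp5 at 50.8 and 75.8 just outside. Below percentile 50 in both groups lay 312 (16.3%) of the liver-high and 332 (17.9%) of the F9-high genes.

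**Figure D5:**
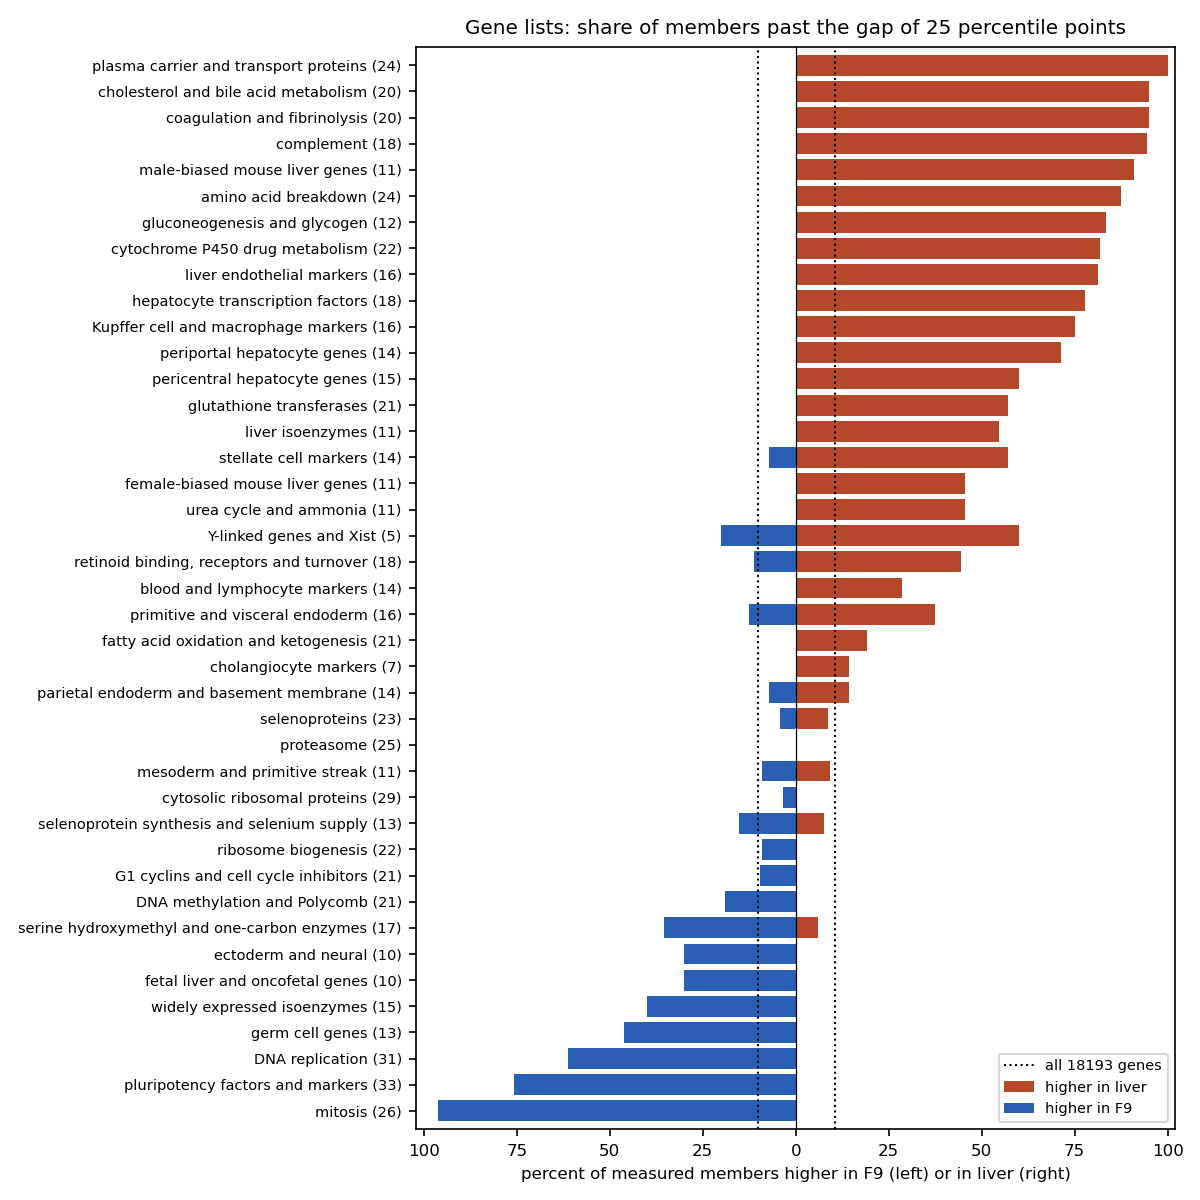
Share of the measured members of each of 41 gene lists counted as higher in liver (red, to the right) or higher in F9 (blue, to the left), with the number of measured members in brackets. Dotted lines are the shares over all 18193 genes, 10.5% and 10.2%. Plasma carrier proteins reach 100% toward liver and mitosis genes 96.2% toward F9. The 25 proteasome genes were all at or above 75 in both groups and could not pass the gap.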

How the data were processed

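Total RNA (100 ng, labelled by in vitro transcription) of 6 control samples was measured on Affymetrix arrays of 45101 probe sets. Values are log2 as deposited, in separate liver and F9 tables. Tools listed in the submitters' processing notes are affy 1.38.1 and R 3.0.1, while the summary and normalization methods are not given in the sources used here. A table of all 12 arrays holds the same deposited log2 values (largest difference 0). The number of arrays limits the precision.

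Percentiles were computed with Python 3.11.15, pandas 2.3.3 and scipy 1.17.1 over non-control probe sets. Of these 45037, 9160 without a symbol and 932 naming several genes were not assigned to a gene, and 34945 were. An Entrez identifier tied 34741 of the 34945 to the RefSeq gene table, and 9010 genes had several probe sets. The calling script was tested on simulated data. Promoter windows were matched by gene, and 2647 genes with several windows took the first listed. List members with no probe set of their own were not analysed here.

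The members, the lists and the rule for named genes were chosen with earlier results of these data known. The rule took the 12 largest differences per direction and the 8 genes highest in both groups, in each case leaving out unnamed gene models. It also took up to 5 members per list and up to 3 that went against their list, isoenzymes, selenoproteins, Sephs1 and Sephs2. Defining markers (Alb, Gata4, Gata6, Sox17, Afp, Zfp42) came from a marker list. Outside the rule, and named after their values were seen, were Asl, C2, Cdh1, Cenpa, Cth, Dppa5a, Fgf5, Glud1, Gsta4, Gstp1, Hadh, Lgr5, Mcm10, Nr5a2, Pcx, Phgdh, Pros1, Rarb, Rps16, Scarb1, Sult3a1 and Tbx3. Alternatives were other gaps, the mean of or agreement among probe sets, ranks over chosen probe sets, a filter on dim genes, the all-array table, the other 6 arrays and each array left out.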

Additional observations from a re-analysis of the deposited data

How the results depend on the processing

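The counts moved most with the gap. With 10 points instead of 25 they were 4259 toward liver and 4425 toward F9, with 50 points 650 and 333, and with no gap, an alternative chosen after seeing the data, 6388 and 7270. With 1 array left out at a time they ran from 1884 to 1966 toward liver and from 1776 to 1961 toward F9. Under the other settings run, they lay between 1435 and 1926 toward liver and between 1396 and 1860 toward F9, the lowest where every probe set of a gene had to pass. Of 176 named genes that were called, 150 kept their call under that rule, 166 with the mean of probe sets and 165 on the other 6 arrays. Among those with a probe set that did not pass were Slco1b2, Dpyd, Clec4g, Bub1b, Ncam1 and Ptprc. Cdc45 reversed when an F9 array was left out, from 3.21 to 3.95 points, because another probe set was then chosen; with a liver array left out it ran from -45.3 to -29.9. No paired analysis was possible because the results come from no test, and livers and cell samples share no source. Signal over background is not in the files, so dim probe sets cannot be marked as undetected.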

Other observations

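Enzymes of serine synthesis and one-carbon transfer also differed in rank between the groups. Of 17 measured, 6 were higher in F9, 1 in liver and 10 in neither (median -12.3 points). Psat1, an aminotransferase of serine synthesis, lay at 47.6, 70.4 and 45.1 in the control livers and 99.2, 99.2 and 99.2 in the control F9 samples. Phgdh, the first enzyme of serine synthesis, lay at 68.3 ± 6.0 in liver and 97.3 ± 0.17 in F9, and the mitochondrial folate enzymes Mthfd1l and Aldh1l2 at 65.7 ± 8.9 in liver and 96.4 ± 0.093 in F9, and at 37.6 ± 10.4 in liver and 84.1 ± 0.50 in F9. The cytosolic folate dehydrogenase Aldh1l1 was the gene higher in liver, at 99.2, 98.95 and 99.3 in the control livers and 69.7, 67.6 and 68.0 in the control F9 samples. Mitochondrial and cytosolic members of the Aldh1l pair therefore lay on opposite sides, each without overlap.

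Gene families defined by symbol gave further counts, to be read beside the shares over all genes, 10.5% higher in liver and 10.2% in F9. Of 72 Cyp genes 47 were higher in liver and 2 in F9, and of 11 Ugt genes 10 and 1. Among 321 solute carriers (Slc), 56 (17.4%) were higher in liver and 37 (11.5%) in F9, the latter near the share over all genes. Among 45 Abc transporters, 14 (31.1%) were higher in liver and 2 (4.44%) in F9. Zinc finger genes named Zfp, most of them transcription factors, leaned to F9, with 55 of 336 (16.4%) higher there and 18 (5.36%) in liver. Of 41 kinesin genes (Kif) 14 were higher in F9 and 0 in liver. Of 39 olfactory receptor genes, which neither source is known to use, 6 were counted as higher in liver and 1 in F9, shares of 15.4% and 2.56%. Most were dim, with 33 of the 39 below percentile 50 in both groups. Their medians on single arrays were 27.7 to 32.5 in liver and 20.1 to 22.1 in F9. On the X chromosome, 14.4% of 617 genes were higher in F9 and 6.81% in liver, against 10.2% and 10.5% over all genes. Some autosomes leaned as far the other way, with 7.86% higher in F9 and 14.7% in liver on chromosome 6 and 6.27% and 13.7% on chromosome 13.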
